A study of Mus musculus with 6 samples.

Results

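Major histocompatibility complex (MHC) class I chains and PD-L1 were examined in 4T1 mouse mammary carcinoma cells, as 10 genes of the 31017 in the count table. They were chosen by symbol and are the classical heavy chains H2-K1 and H2-D1, the non-classical heavy chains H2-Q4, H2-Q6, H2-Q7, H2-T22, H2-T23 and H2-M3, the shared light chain B2m, and Cd274, which encodes PD-L1. The 3 ETV4 KO samples came from cells nucleofected with Cas9 and guide RNAs against Etv4, a PEA3-type ETS transcription factor, and the 3 control samples from cells given Cas9 and control guides. Both groups were grown in 3D collagen I gels, and poly(A) RNA was sequenced. Each group carries a single library code, and the labels do not say whether ETV4 KO cells were 1 clone or whether replicates were grown apart, so the p-values cover only sample-to-sample spread, and this may be technical. Which of the collagen concentrations in the protocol applied to these gels is not stated, and the labels name no culture time or added interferon.

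Class I molecules carry peptides from inside the cell to its surface, where CD8 T cells read them. A heavy chain needs β2-microglobulin, the product of B2m, and a peptide cut by proteasomes and moved into the endoplasmic reticulum by the TAP transporter. Interferons raise most of these genes through STAT and IRF factors, and NLRC5 is a transactivator devoted to class I genes. Classical chains are highly polymorphic and present many peptides, whereas non-classical chains are less variable and serve narrower receptors, among them those of NK cells and unconventional T cells. PD-L1 is an interferon-inducible ligand on tumour cells that restrains T cells through PD-1.

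The promoters were read first because class I genes share a short control region upstream of the start site, with an NF-kB site called enhancer A beside an interferon-stimulated response element (ISRE). The stretches below, of 30 bases each, come from the RefSeq promoter table (GRCm38.p6, the build also called mm10) and run 5′ to 3′ on the gene's strand. They were chosen to set heavy chains that fell far beside heavy chains that fell less and genes that did not fall. H2-T23 and Cd274 are not among them. Capitals mark GGGATTCCC (the core of enhancer A), TTTCACTT (the core of the class I ISRE) and TTTCNNTTT (a spaced pair of ISRE repeats), the last read on the opposite strand in B2m.
H2-K1: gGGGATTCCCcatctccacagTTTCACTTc
H2-D1: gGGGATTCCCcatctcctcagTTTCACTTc
H2-Q6: gGGGATTCCCcatctccccagTTTCACTTc
H2-Q7: tgGGGATTCCCatctccccagTTTCACTTc
H2-Q4: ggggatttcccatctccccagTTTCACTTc
H2-T22: agagtccctaattggcttagTTTCACTTTc
H2-M3: attcccccatttcctctgaggTTTCACTTc
B2m: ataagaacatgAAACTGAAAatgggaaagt

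The stretches lie at chr17:34000429-34000458 (H2-K1, minus strand), chr17:35262923-35262952 (H2-D1), chr17:35424677-35424706 (H2-Q6), chr17:35439021-35439050 (H2-Q7), chr17:35379443-35379472 (H2-Q4), chr17:36042924-36042953 (H2-T22, minus strand), chr17:37270112-37270141 (H2-M3) and chr2:122147538-122147567 (B2m), on the plus strand where not stated. All 10 genes had a promoter in the table, and both strands of the 250 bases before each start were searched. The letters GGGATTCCC were found in 4 of the 10 genes (H2-K1, H2-D1, H2-Q6 and H2-Q7), against 95 of the 27025 genes with a promoter (0.352%). TTTCACTT was found in 7 of the 10, against 438 genes (1.62%), and TTTCNNTTT in 4 (H2-T22, H2-T23, B2m and Cd274), against 2915 genes (10.8%). In H2-T22 the matches to TTTCACTT and TTTCNNTTT overlap. The cyclic AMP response core TGACG occurred in 7 of the 10 and in 19.8% of all genes, and the Y box CCAAT in 9 of the 10 and in 37.5%. AGGAAG, a PEA3 site, occurred in H2-T22 alone among the 10 and in 32.3% of all genes. Of the 6 motifs only TTTCNNTTT was found in the Cd274 window. Matches are letters in the C57BL/6J reference, not measured binding, and 4T1 came from the BALB/c strain, whose H2 haplotype is another one.

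The libraries were close within a group. Total counts were 24356286 to 29042569 in ETV4 KO and 22355015 to 26669985 in control, and the Pearson correlation of log2 CPM (counts scaled to a common library total) across genes was 0.9978 to 0.9981 within groups and 0.9688 to 0.9699 between them. Etv4 itself averaged 89.8 ± 2.44 CPM in ETV4 KO and 133.9 ± 0.752 CPM in control (SD, n = 3 each); its log2 fold change was -0.58 (edgeR, SE 0.036, adjusted p = 1.03e-14). Counts over the whole gene do not show the edited site or the protein. Epithelial markers (Krt8, Krt18, Krt19, Epcam, Cdh1 and Cldn7) summed to 3282 to 3402 CPM in ETV4 KO and 4929 to 5066 CPM in control, scaled by library size. They did not move alike: their log2 fold changes were, in that order, -0.48, -0.42, 0.13, -1.37, -0.19 and -5.92. The 8 leukocyte markers summed to 9.28 to 11.3 CPM in ETV4 KO and 10.0 to 10.6 CPM in control; Cd68 made up most of this, Ptprc had 5, 5 and 6 counts in ETV4 KO against 1, 4 and 3 in control, and Cd3e and Adgre1 had 0 in every library. The 6 fibroblast markers summed to 12.7 to 14.3 CPM in ETV4 KO and 10.1 to 11.9 CPM in control, nearly all of it Pdgfra, with Lum at 0, and the 4 endothelial markers to 0.370 to 0.435 CPM in ETV4 KO and 0.224 to 0.572 CPM in control. The part of these markers in the results was not tested. Fewer expressing cells and less RNA per cell cannot be told apart in these bulk samples.

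Of the 10 genes, 8 fell in ETV4 KO, H2-M3 rose and B2m did not pass the test. The size differed widely: Cd274, H2-Q7 and H2-Q6 fell more than 2-fold, H2-T22, H2-Q4 and H2-T23 fell less, and the classical chains fell least. Across all 12076 genes tested by edgeR's quasi-likelihood test, 71.1% were called at an adjusted p under 0.05, 36.0% lower and 35.0% higher, so that a call is common here. By size, 3 of the 10 were called at least 2-fold lower, where 6.02% of all tested genes were. The median log2 fold change was -0.46 over the 10 genes and -0.0038 over all tested genes, whose median absolute value was 0.29. The groups did not overlap for 9 of the 10 genes, 8 of them with ETV4 KO lower; of all tested genes 72.7% did not overlap, 36.6% with ETV4 KO lower.

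**Figure D1:**
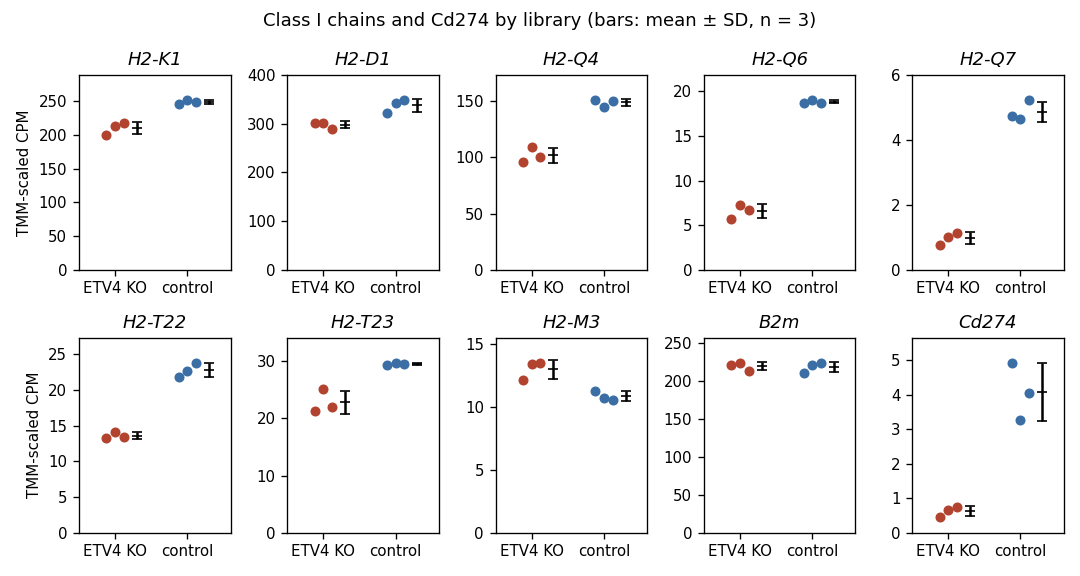
TMM-scaled CPM (linear axes from 0) of each of the 10 genes in the 3 ETV4 KO libraries (left) and the 3 control libraries (right); points are libraries and bars are the mean ± SD. The groups are apart for every gene but B2m, and H2-M3 is the gene whose ETV4 KO points are the higher ones.

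The classical chains H2-K1 and H2-D1, which present peptides to CD8 T cells, were a little lower in ETV4 KO. H2-K1 (chromosome 17, 33996017 to 34000347) had 200.4, 213.3 and 218.0 CPM in ETV4 KO, against 246.1, 251.2 and 248.7 CPM in control. Every ETV4 KO library lay below every control library, with a log2 fold change of -0.24 (edgeR, SE 0.034, adjusted p = 3.27e-07), or 1.18-fold lower. H2-D1 (chromosome 17, 35262730 to 35267499) had 302.1, 301.6 and 289.0 CPM in ETV4 KO, against 322.1, 342.3 and 347.9 CPM in control. Its groups did not overlap either, and its log2 fold change was -0.18 (edgeR, SE 0.034, adjusted p = 2.33e-05), or 1.13-fold lower. Neither chain passed a test against a 1.5-fold change. The number of H2-K1 counts per H2-D1 count was 0.663, 0.707 and 0.754 in ETV4 KO and 0.764, 0.734 and 0.715 in control, and these ranges overlapped (two-sided exact permutation p = 0.40). Summed to 1 row, H2-K1 and H2-D1 had a log2 fold change of -0.21 (edgeR, SE 0.031, adjusted p = 8.14e-07). In the longest coding transcript of H2-D1, 14.3% of all 50-base words occur in other genes, most often H2-Q1 (7.40%). For H2-K1 the share was 8.79%, most often with H2-D1 (6.94%). The sum thus does not cover what H2-D1 shares with H2-Q1. With 100-base words the shares were 4.64% for H2-D1 and 0% for H2-K1.

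The Qa-region members H2-Q4, H2-Q6 and H2-Q7 fell further, and unequally. H2-Q7 encodes Qa-2, a chain anchored in the membrane by a lipid, and H2-Q6 is its close neighbour; H2-Q4 belongs to the same cluster. H2-Q7 (chromosome 17, 35439155 to 35443773) had 22, 25 and 27 counts in ETV4 KO, against 110, 126 and 119 counts in control, or 0.969 ± 0.184 CPM and 4.88 ± 0.314 CPM (SD, n = 3 each). The highest ETV4 KO library was far below the lowest control library, with a log2 fold change of -2.34 (edgeR, SE 0.18, adjusted p = 1.07e-12), or 5.06-fold lower. H2-Q6 (chromosome 17, 35424850 to 35430055) had 5.73, 7.27 and 6.65 CPM in ETV4 KO, against 18.75, 19.02 and 18.74 CPM in control. The control libraries were nearly equal and the ETV4 KO libraries lay at about 1 level well below them, with a log2 fold change of -1.53 (edgeR, SE 0.084, adjusted p = 5.29e-16), or 2.89-fold lower. H2-Q4 (chromosome 17, 35379617 to 35385290), the most abundant of these genes, had 96.0, 109.0 and 100.7 CPM in ETV4 KO, against 150.7, 145.2 and 150.4 CPM in control. It fell 1.46-fold, with a log2 fold change of -0.55 (edgeR, SE 0.040, adjusted p = 4.31e-13) and no overlap between the groups.

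Reads of the Qa genes can be hard to place. Of all 50-base words in the longest coding transcript of H2-Q7 (GENCODE M21), 34.9% occur in transcripts of other genes, most often H2-Q6. For H2-Q6 the share was 32.0%, most often with H2-Q7, and for H2-Q4 24.3%. With 100-base words the shares were smaller, at 16.4% for H2-Q7, 10.8% for H2-Q6 and 2.66% for H2-Q4. The count table has no gene named H2-Q8 or H2-Q9. Summed to 1 row, which removes any split of reads between the pair, H2-Q6 and H2-Q7 had a log2 fold change of -1.66 (edgeR, SE 0.079, adjusted p = 1.55e-17). H2-Q7 had 0.134, 0.139 and 0.170 counts per H2-Q6 count in ETV4 KO, against 0.253, 0.245 and 0.279 in control, without overlap between the groups (two-sided exact permutation p = 0.10, the smallest that 3 against 3 samples allow). H2-Q6 had 0.0641 ± 0.00389 counts per H2-Q4 count in ETV4 KO and 0.127 ± 0.00376 in control (SD, n = 3 each, two-sided exact permutation p = 0.10).

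The T-region genes fell and H2-M3 rose. H2-T22 (chromosome 17, 36037128 to 36042747), whose product is a ligand of some γδ T cell receptors, had 13.2, 14.2 and 13.4 CPM in ETV4 KO, against 21.9, 22.7 and 23.8 CPM in control. The groups were well apart, with a log2 fold change of -0.74 (edgeR, SE 0.066, adjusted p = 3.26e-11), or 1.67-fold lower. H2-T23 (chromosome 17, 36029773 to 36032855) encodes Qa-1, the mouse counterpart of human HLA-E and a ligand of the NK receptor CD94/NKG2A. It had 21.31, 25.16 and 22.002 CPM in ETV4 KO, against 29.4, 29.7 and 29.5 CPM in control. ETV4 KO replicate 2 was the nearest to control but still below it, and the log2 fold change was -0.37 (edgeR, SE 0.061, adjusted p = 2.99e-06), or 1.30-fold lower. Of the 50-base words of H2-T22, 44.7% occur elsewhere, 37.9% in H2-T10, a symbol the count table lacks. The share for H2-T23 was 28.8%. With 100-base words the shares were 14.2% for H2-T22 and 7.28% for H2-T23.

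H2-M3 (chromosome 17, 37270220 to 37274484), which presents peptides that begin with N-formylmethionine, had 12.2, 13.4 and 13.5 CPM in ETV4 KO, against 11.3, 10.7 and 10.6 CPM in control. All ETV4 KO libraries were the higher ones, with a log2 fold change of 0.26 (edgeR, SE 0.079, adjusted p = 0.00479), or 1.20-fold. Only 0.576% of its 50-base words occur in other genes. With the median of its 10 Mb bin taken out this rise was lost, at -0.047 (edgeR adjusted p = 0.616).

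**Figure D2:**
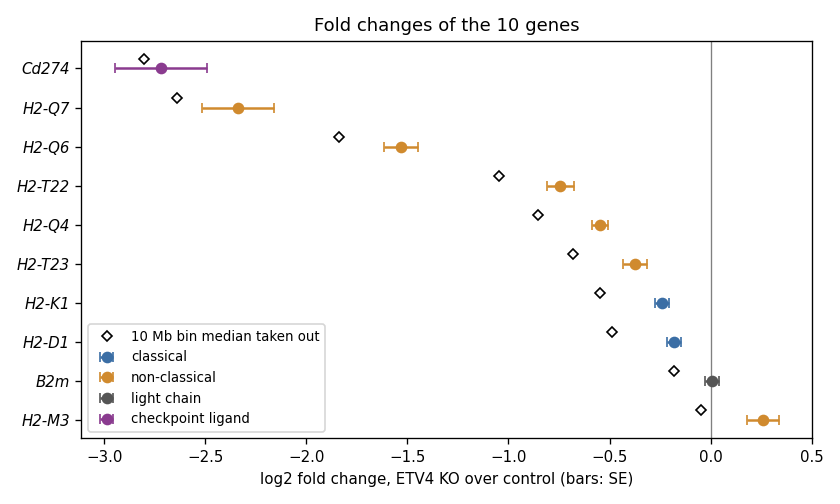
Log2 fold change of ETV4 KO over control for each of the 10 genes, with filled points coloured by role, bars for the SE, and open diamonds for the value after the median of the gene's 10 Mb bin is taken out. Cd274 at -2.72 and H2-Q7 at -2.34 lie farthest to the left, the classical chains near -0.2, and every diamond lies to the left of its point.

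The light chain B2m (chromosome 2, 122147686 to 122153083), the shared partner of the heavy chains, had 221.6, 223.6 and 213.4 CPM in ETV4 KO, against 210.8, 220.6 and 223.7 CPM in control. The groups overlapped, and the log2 fold change was 0.0080 (edgeR, SE 0.034, adjusted p = 0.841), with a 95% interval of -0.058 to 0.074 by a normal approximation. None of its 50-base words occurs in another gene. Its sign changed with some scalings, and with the median of its 10 Mb bin taken out it was called lower at -0.18 (edgeR adjusted p = 3.06e-05).

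Heavy chain counts per light chain count were lower in all 3 ETV4 KO libraries. The 8 heavy chain genes together had 2.94, 3.06 and 3.11 counts per B2m count in ETV4 KO, against 3.82, 3.74 and 3.73 in control. For this ratio the two-sided exact permutation p was 0.10, the smallest possible, and 0.10 after Benjamini-Hochberg adjustment over the 2 planned ratios. With counts divided by transcript length the ratio was 1.43 ± 0.0467 in ETV4 KO and 1.77 ± 0.0260 in control (SD, n = 3 each). H2-K1 and H2-D1 made up 77.1%, 75.2% and 76.3% of the counts of the 8 heavy chain genes in ETV4 KO, against 70.6%, 71.9% and 71.5% in control (two-sided exact permutation p = 0.10, the smallest possible). That difference of 4.88 percentage points was between 4.42 and 5.39 with each library left out in turn. In CPM the 6 non-classical chains summed to 158.9 ± 10.5 in ETV4 KO and 235.7 ± 3.26 in control (SD, n = 3 each). Most of that sum was H2-Q4, at 101.9 ± 6.58 CPM in ETV4 KO and 148.8 ± 3.14 CPM in control. The classical pair summed to 508.1 ± 6.26 CPM in ETV4 KO and 586.1 ± 15.6 CPM in control (SD, n = 3 each).

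**Figure D3:**
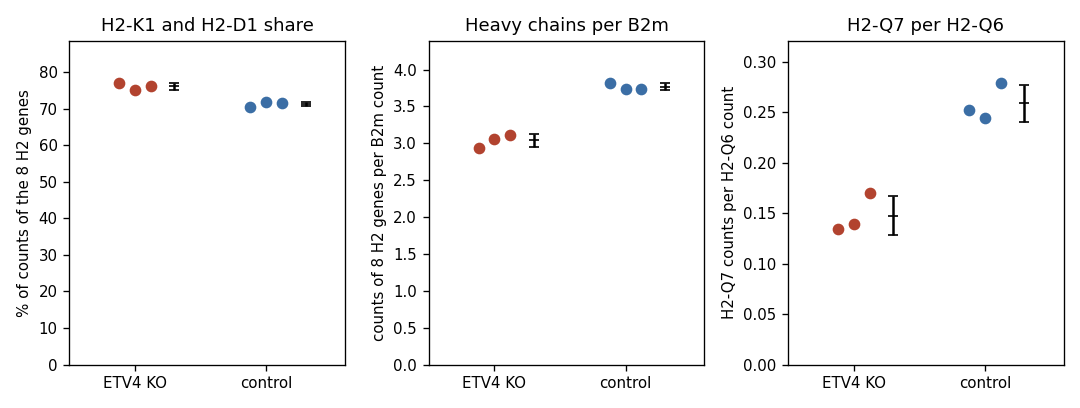
Share of H2-K1 and H2-D1 in the counts of the 8 heavy chain genes (%), counts of those 8 genes per B2m count, and H2-Q7 counts per H2-Q6 count, by library (points) with the mean ± SD (bars); ETV4 KO is on the left of each panel. The ETV4 KO share sits above the control share, at 76.2% against 71.3% on average, and both ratios sit below those of control.

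Per kilobase of the longest coding transcript, the order of the levels was similar in both groups. In ETV4 KO it ran from B2m (255.3 CPM per kb) through H2-D1 (141.6), H2-K1 (130.0), H2-Q4 (56.8), H2-T23 (15.5), H2-M3 (9.06), H2-T22 (7.73), H2-Q6 (3.14) and H2-Q7 (0.636) to Cd274 (0.171). In control it ran from B2m (253.9 CPM per kb) through H2-D1 (160.5), H2-K1 (153.6), H2-Q4 (83.0), H2-T23 (20.1), H2-T22 (12.9), H2-Q6 (9.03), H2-M3 (7.56) and H2-Q7 (3.20) to Cd274 (1.12). H2-M3 stood above H2-T22 and H2-Q6 in ETV4 KO and below both in control. Neighbours in each order did not overlap in their 3 libraries, except H2-D1 and H2-K1 in control, which ran from 153.2 to 165.5 and from 152.0 to 155.2 CPM per kb. These levels depend on the transcript taken as the length.

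Cd274, the gene of PD-L1, was the lowest of the 10 and fell the most. Cd274 (chromosome 19, 29367455 to 29388095) had 13, 16 and 18 counts in ETV4 KO, against 114, 88 and 92 counts in control. These were 0.454, 0.646 and 0.753 CPM in ETV4 KO and 4.91, 3.25 and 4.05 CPM in control, so that the groups were far apart although the control libraries varied. The log2 fold change was -2.72 (edgeR, SE 0.23, adjusted p = 8.22e-12), or 6.59-fold lower, and it lay between -2.88 and -2.52 with each library left out in turn. Pdcd1lg2, the gene of PD-L2 and named after its values were seen, had 0 counts in all 6 libraries.

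Local background differed between the chromosomes. Between 500 kb before H2-K1 and 500 kb after H2-M3, 113 other genes were tested, with a median log2 fold change of 0.30. Of these, 17 were called lower (15.0%) and 70 higher (61.9%), against 36.0% and 35.0% of all tested genes. The heavy chain genes that fell thus lay in a stretch where most other genes rose. Medians of genes above a log2 CPM of 3 were 0.37 over chromosome 17, 0.15 over chromosome 2 and 0.12 over chromosome 19. The upward shift was thus not confined to this stretch. Flanking H2-K1, Vps52 had 0.13 and Ring1 had -0.20; beside H2-D1, the helicase gene Ddx39b had -0.054 and H2-Q1 had -0.27. The Q genes lie between H2-Q2, at 0.20, and H2-Q10, at -0.12, neither of which passed the test, with Gm11131 in between at -1.61. H2-T24, at -1.14, and Gm11127, at -0.12, flank the T-region pair, of which Gm11127 did not pass. Beside H2-M3, the GABA receptor gene Gabbr1 rose by 0.89 and Olfr99 had 0.66 without passing. With bin medians taken out, H2-K1, H2-D1, H2-Q4 and H2-T23 had -0.55, -0.49, -0.85 and -0.68. In that fit 9 of the 10 genes were called lower and 0 higher, against 4136 and 3684 of all 12076 tested genes.

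**Figure D4:**
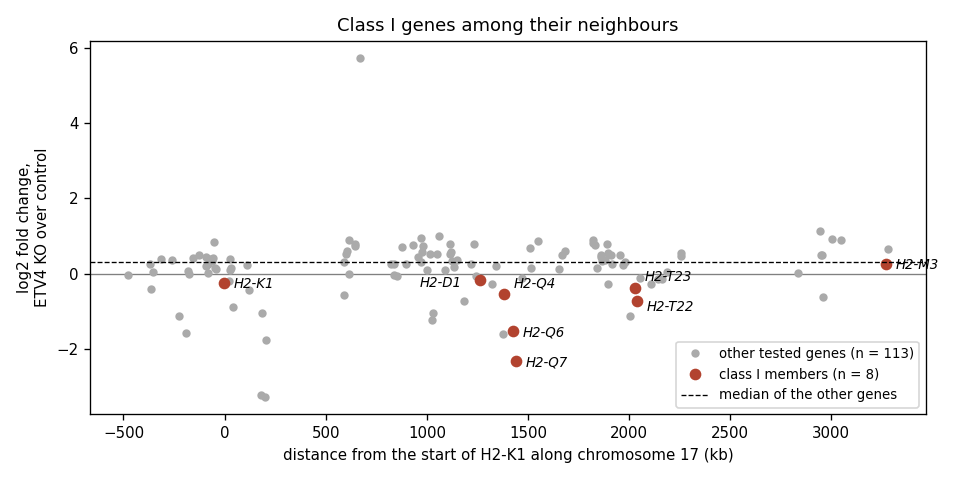
Log2 fold change of ETV4 KO over control for the 8 heavy chain genes (red, named) and 113 other tested genes (grey) against the distance from the start of H2-K1 along chromosome 17 in kb; the dashed line is the median of the grey points, 0.30. H2-Q6 and H2-Q7 lie far below that line, and H2-M3 lies close to it.

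Around Cd274 on chromosome 19, 11 genes were tested within 500 kb, of which 3 were called lower and 5 higher, with a median log2 fold change of 0.085, and none fell as far as Cd274. Its nearest tested neighbour Plgrkt, 0.065 kb away and encoding a plasminogen receptor, fell by 0.52 on the log2 scale, while Ric1 on the other side rose by 0.51. Jak2, the interferon receptor kinase encoded in the same interval, fell by 1.14. Around B2m on chromosome 2, 7 genes were tested, 1 called lower and 5 higher, with a median of 0.48. There Spg11 had -0.14 and Sord rose by 0.75. Both sets of neighbours are few, and 36.0% of all tested genes were called lower and 35.0% higher.

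Genes that supply peptides to class I chains were mostly lower. Of the 13 listed, all tested, 9 were called lower (69.2%) and 2 higher (15.4%), against 36.0% and 35.0% of all tested genes. Their median log2 fold change was -0.69, beside -0.0038 over all tested genes. The immunoproteasome subunit genes Psmb8 and Psmb10 had log2 fold changes of -3.30 and -1.25, and Tap2, a part of the TAP transporter, had -1.77. The chaperone Calr rose by 0.77, to 1383.9 ± 10.6 CPM in ETV4 KO, against 810.5 ± 12.01 CPM in control (SD, n = 3 each). SEs of these log2 fold changes were 0.030 to 0.11, with edgeR adjusted p-values of at most 2.56e-18. Psmb9 and Tap1, the partner subunits named after their values were seen, had -3.23 and -1.06 (edgeR adjusted p = 1.14e-14 and 3.48e-10).

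Transactivators and interferon signalling genes also fell in most cases, 14 of 20 lower (70%) and 1 higher (5%), with a median of -0.41. Among all tested genes these shares were 36.0% and 35.0%. The kinase Jak2 went down to 81.7 ± 2.89 CPM in ETV4 KO, against 180.6 ± 5.66 CPM in control (SD, n = 3 each). The interferon regulatory factors Irf2 and Irf1 had log2 fold changes of -0.63 and -0.65 (SE 0.044 and 0.056, edgeR adjusted p = 1.43e-13 and 1.85e-11). Nlrc5, named after its values were seen, had 1.63 ± 0.139 CPM in ETV4 KO and 4.23 ± 0.789 CPM in control (SD, n = 3 each); its log2 fold change was -1.36 (edgeR, SE 0.17, adjusted p = 3.70e-08). The NF-kB subunit Rela was the 1 called higher, at 0.077 (edgeR adjusted p = 0.0435). That call was lost without ETV4 KO replicate 1 or 3 and without control replicate 2 or 3. It was also lost with upper-quartile factors, library size only, DESeq2, the CPM filter, an adjusted p under 0.01 and the test against a 1.5-fold change. With bin medians taken out the list had 12 lower and 1 higher, against 4136 and 3684 of all 12076 tested genes.

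**Figure D5:**
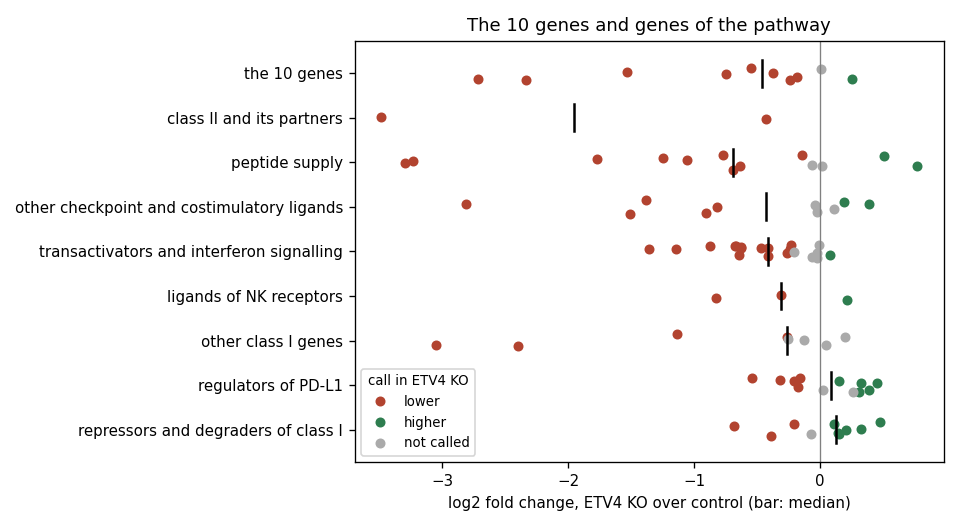
Log2 fold change of ETV4 KO over control for the 10 genes (top row) and the tested genes of 8 lists, 1 point per gene, coloured by call, with a bar at each median; vertical scatter within a row has no meaning. Genes of peptide supply and of transactivation lie mostly left of 0, whereas regulators of PD-L1 and repressors of class I lie on both sides.

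Genes reported to repress or degrade class I chains went both ways, 6 of 10 higher (60%) and 3 lower (30%), with a median of 0.13. The shares over all tested genes were 35.0% higher and 36.0% lower. The signal adaptor Traf3, the ubiquitin ligase gene March9 and Tmem127 rose by 0.32, 0.48 and 0.21, and the autophagy receptor Nbr1 fell by 0.68. With bin medians taken out 2 were called higher and 1 lower, against 3684 and 4136 of all 12076 tested genes. Of 12 regulators of PD-L1, 5 were called lower and 5 higher (41.7% each), near the 36.0% lower and 35.0% higher of all tested genes, with a median of 0.088. Myc and Hif1a rose by 0.45 and 0.33, and the transcription factor Stat3 fell by 0.54. Cmtm6, which keeps PD-L1 at the surface and is named after its values were seen, fell by 0.32 (edgeR, SE 0.043, adjusted p = 1.46e-07). With bin medians taken out 1 was called lower and 7 higher, against 4136 and 3684 of all 12076 tested genes.

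Other checkpoint and costimulatory ligands had 10 tested genes of 18, of which 5 fell (50%) and 2 rose (20%), with a median of -0.43. By comparison, 36.0% of all tested genes were called lower and 35.0% higher. Nectin3, Lgals9 (galectin-9) and Vsir (VISTA) had -0.91, -1.51 and -1.38 (edgeR adjusted p at most 3.73e-09), while Pvr, the poliovirus receptor and a ligand of TIGIT, rose by 0.39 (edgeR adjusted p = 3.14e-09). Without ETV4 KO replicate 2, control replicate 1 or control replicate 2, only 1 gene was called higher. The same held with upper-quartile factors, library size only, DESeq2 and an adjusted p under 0.01. The test against a 1.5-fold change called 0 higher. Among ligands of NK receptors 3 of the 7 in the table were tested: Clec2d and H60b had -0.83 and -0.31, and Ulbp1 rose by 0.21. Of these 3, 2 were called lower and 1 higher, against 36.0% and 35.0% of all tested genes. H60b overlapped between the groups. Only 1 gene was called lower without ETV4 KO replicate 2, control replicate 2 or control replicate 3. The same held with DESeq2, an adjusted p under 0.01, the test against a 1.5-fold change, and bin medians taken out.

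Other class I genes had 8 tested members of 19 in the table, 4 lower (50%) and 0 higher, with a median of -0.26. All tested genes were 36.0% lower and 35.0% higher. Mr1 and Hfe, which lie outside the H2 region, fell the most. Mr1, which presents vitamin B metabolites to MAIT cells, had 0.493 ± 0.179 CPM in ETV4 KO and 4.24 ± 0.512 CPM in control, a log2 fold change of -3.05 (SE 0.23, n = 3 each, edgeR adjusted p = 5.24e-13). Hfe, a class I-like regulator of iron uptake, had 0.815 ± 0.265 CPM in ETV4 KO and 4.32 ± 0.380 CPM in control, with -2.40 (SE 0.20, n = 3 each, edgeR adjusted p = 7.99e-12). H2-T24 and H2-Q1 had -1.14 and -0.27 (edgeR adjusted p = 0.0254 and 0.0347), the groups of H2-T24 overlapping. Only 2 genes of this list were called lower without ETV4 KO replicate 1, ETV4 KO replicate 2 or control replicate 2. The same held with DESeq2, an adjusted p under 0.01 and the test against a 1.5-fold change. Only 2 of 11 class II genes and partners passed the low-count filter. H2-Aa, H2-Eb2 and H2-Ob had 0 counts in every library, and H2-Ab1 had 4, 2 and 1 counts in ETV4 KO against 8, 14 and 9 in control. The invariant chain gene Cd74 and the peptide loading gene H2-DMa had log2 fold changes of -3.48 and -0.43 and were both called lower. Over all tested genes 36.0% were called lower and 35.0% higher. Cd74 was near the floor, with 2, 1 and 1 counts in ETV4 KO against 13, 17 and 16 in control. The size of its fold change is thus imprecise (edgeR, SE 0.54). H2-DMa averaged 7.74 ± 0.440 CPM in ETV4 KO and 10.4 ± 0.566 CPM in control (SD, n = 3 each). Cd74 lay below 1 CPM in every library, and with the CPM filter only 1 gene of this list was called lower. Over all alternatives this number ran from 1 to 3.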

How the data were processed

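For 6 libraries the authors deposited raw counts by gene symbol, a unit read from the values. The submitters' processing notes name STAR 2.7.9a, featureCounts, FastQC 0.11.9 and R 4.1.1, with the builds hg38 and mm10 and no roles. Annotation, strand setting and the handling of multi-mapping reads: not given in the sources used here, so H2 genes that share sequence are uncertain. Groups came from sample titles, and columns from library names.

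Counts were tested with edgeR 4.0.16 in R 4.3.3 (filterByExpr, minimum count 10 and total 15; TMM; glmQLFit and glmQLFTest, group only; Benjamini-Hochberg over 12076 genes). SEs were derived from the fold change and its F statistic. Alternatives used DESeq2 1.42.0, limma 3.58.1 (voom), other scalings, filters and thresholds, a replicate block, left-out samples, summed copies and 10 Mb bin medians of genes above a log2 CPM of 3. Ratios were tested by exact permutation (scipy 1.17.1). The test was checked on simulated counts with few changed genes and samples drawn independently. That check does not cover a change as broad as this one, or samples that are not independent. Positions are GENCODE M21 and promoters RefSeq, GRCm38. Genes named per list are at most 3 called in its commoner direction and 1 in the opposite one, by adjusted p, beside flanking tested genes. The genes and lists were chosen with earlier results of these data known. 1 gene that this rule names is not reported here.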

Additional observations from a re-analysis of the deposited data

How the results depend on the processing

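The 8 lower calls and the 1 higher call were kept in number with RLE and upper-quartile factors, library size alone, DESeq2, limma-voom, no low-count filter, a CPM filter, an adjusted p under 0.01, and without any 1 of the 6 samples; with H2-K1 added to H2-D1 and H2-Q6 to H2-Q7, 6 genes or pairs were lower and 1 was higher. Against a 1.5-fold change (glmTreat) 1684 of all tested genes were called, 949 lower and 735 higher, and of the 10 genes 4 were called lower (Cd274, H2-Q7, H2-Q6 and H2-T22) and 0 higher. With 10 Mb bin medians taken out, 9 of the 10 genes were lower and 0 higher, against 4136 and 3684 of all 12076 tested genes. H2-M3 then changed sign to -0.047. Bin medians enter as known, without their error. The sign of B2m changed to -0.029 with upper-quartile factors, -0.043 with library size only and -0.18 with bin medians taken out, and ran from -0.017 to 0.031 with a sample left out; the cause was not tested. Deviations of same-numbered samples correlated at 0.071, 0.071 and 0.019, and those of differently numbered samples between -0.086 and 0.020. With 3 samples per group these values cannot decide whether same-numbered samples shared a batch. The fit with a replicate block called 8882 genes, against 8582 without it, and 8 of the 10 lower and 1 higher. Low counts of Cd274 and H2-Q7 limit the precision of their fold changes.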
